A study of Mus musculus with 6 samples.

Results

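The Frizzled, LRP and ROR receptors are the proteins at the cell surface that bind WNT ligands, and 10 of their genes were described here in knee joint tissue of Frzb-/- mice. The genes were Fzd1, Fzd2, Fzd4, Fzd6, Fzd7, Fzd8, Lrp5, Lrp6, Ror1 and Ror2, and every probe set that the array annotation gives to one of them alone was used, which made 20 of the 30618 probe sets of the table and 10 of 13817 genes. A probe set is a group of short probes for 1 transcript, and its level is a log2 expression value, so that a difference of 1 is a doubling. RNA came from tibial articular cartilage and subchondral bone, taken out in 1 piece that also held marrow and the top of the growth plate, from male C57Bl/6J mice aged 6 weeks. Per the labels 3 mice were wild type (animals 6-1, 8-1 and 9-1) and 3 were Frzb -/- (animals 6, 14 and 17), with 1 array and 1 joint per mouse and no treatment, and the Frzb-/- mice lacked the gene in all cells of the body. The study left out 1 presumed Frzb-/- mouse after re-genotyping found it heterozygous, and the labels do not say which. Animals 14 and 17 are the pair whose mean differences match the fold differences the study prints, and by that match animal 6 was the left-out mouse. Animals 14 and 17 were therefore compared with wild type, and animal 6, which still carries the Frzb -/- label, was kept apart. The left-out mouse had first drawn notice by its overall profile on these arrays, a choice that the p-values below do not include.

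WNT proteins are lipid-bearing signals that a cysteine-rich domain on the outer side of a Frizzled receptor holds. When the same WNT also binds LRP5 or LRP6, the axin complex is drawn to the membrane and β-catenin is spared from breakdown, the branch known as canonical signalling. ROR1 and ROR2 are single-pass receptors of the tyrosine kinase family that carry a Frizzled-like domain and serve WNT5A and related ligands in the branches that do not use β-catenin. Frzb (frizzled-related protein, also named Sfrp3) has the same kind of domain without a membrane anchor and binds WNTs outside the cell. In joints these receptors act on chondrocyte differentiation and on bone formation by osteoblasts.

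The targeted gene checked the labels. Frzb, read at the brighter probe set of its pair, measured 10.02, 10.79 and 10.16 in wild-type animals 6-1, 8-1 and 9-1, 7.02 and 6.42 in animals 14 and 17, and 6.93 in animal 6. The groups did not overlap, and animal 6 lay with the knock-outs for this gene. Its difference from wild type was -3.39, and -3.05 at the dimmer probe set. The Frzb level of animal 6 thus went with its Frzb -/- label and did not mark it as a heterozygous mouse. Its genotype was not tested here. The difference of animals 14 and 17 from wild type was -3.61 on the log2 scale (limma, adjusted p = 0.000994). The markers of the labelled tissue were bright: Col2a1, the main collagen of cartilage, lay between 14.56 and 14.75 in all 6 mice, and Col1a1, the main collagen of bone, between 14.53 and 14.87.

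Fzd1, Fzd2, Fzd8 and Ror1 rose in animals 14 and 17, by 1.02 to 1.49 on the log2 scale, and no receptor gene fell, though after centring on fibroblast markers Fzd2 lay at -0.0041. A probe set was called when the adjusted p from limma was below 0.01 and the log2 fold change above 1 in size, the thresholds of the study's methods, with adjustment over all 30618 probe sets. Of the 20 receptor probe sets 5 were called higher (25%), whereas 2.34% of all probe sets were called higher and 5.09% lower. By gene, read at the probe set with the highest mean, 4 of 10 were called higher (40%), against 3.03% of all genes, and the same 4 were called when any probe set of a gene counted, against 3.79% of all. All 20 probe sets had a mean above wild type, against 51.7% of all probe sets, but 5 of 20 did so when each array was centred on fibroblast markers, a scaling set out below. The fibroblast markers rose themselves, and any gene that rose less than they did turns negative. A turned sign under that centring, here and below, therefore does not test direction. The median log2 fold change of the 20 was 0.86, and that of all probe sets 0.02. In 18 of 20 (90%) both animals 14 and 17 lay above every wild-type mouse, as they did in 27.5% of all probe sets, while in 28.1% of all, and in no receptor probe set, both lay below. Each array carried weight: without animal 17 no receptor gene was called by limma (6 had an unadjusted p below 0.05), without animal 14 Fzd1 alone was at its brightest probe set, and without 6-1, 8-1 or 9-1 there were 3. The called probe sets numbered 3, 3, 4, 2 and 0 without animals 6-1, 8-1, 9-1, 14 and 17. Fzd1, Fzd2 and Fzd8 are among the WNT receptors the study itself singled out on these arrays, so their direction is not independent evidence. RNA was taken from whole tissue, so for each gene more cells of a type and more RNA per cell cannot be told apart.

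**Figure D1:**
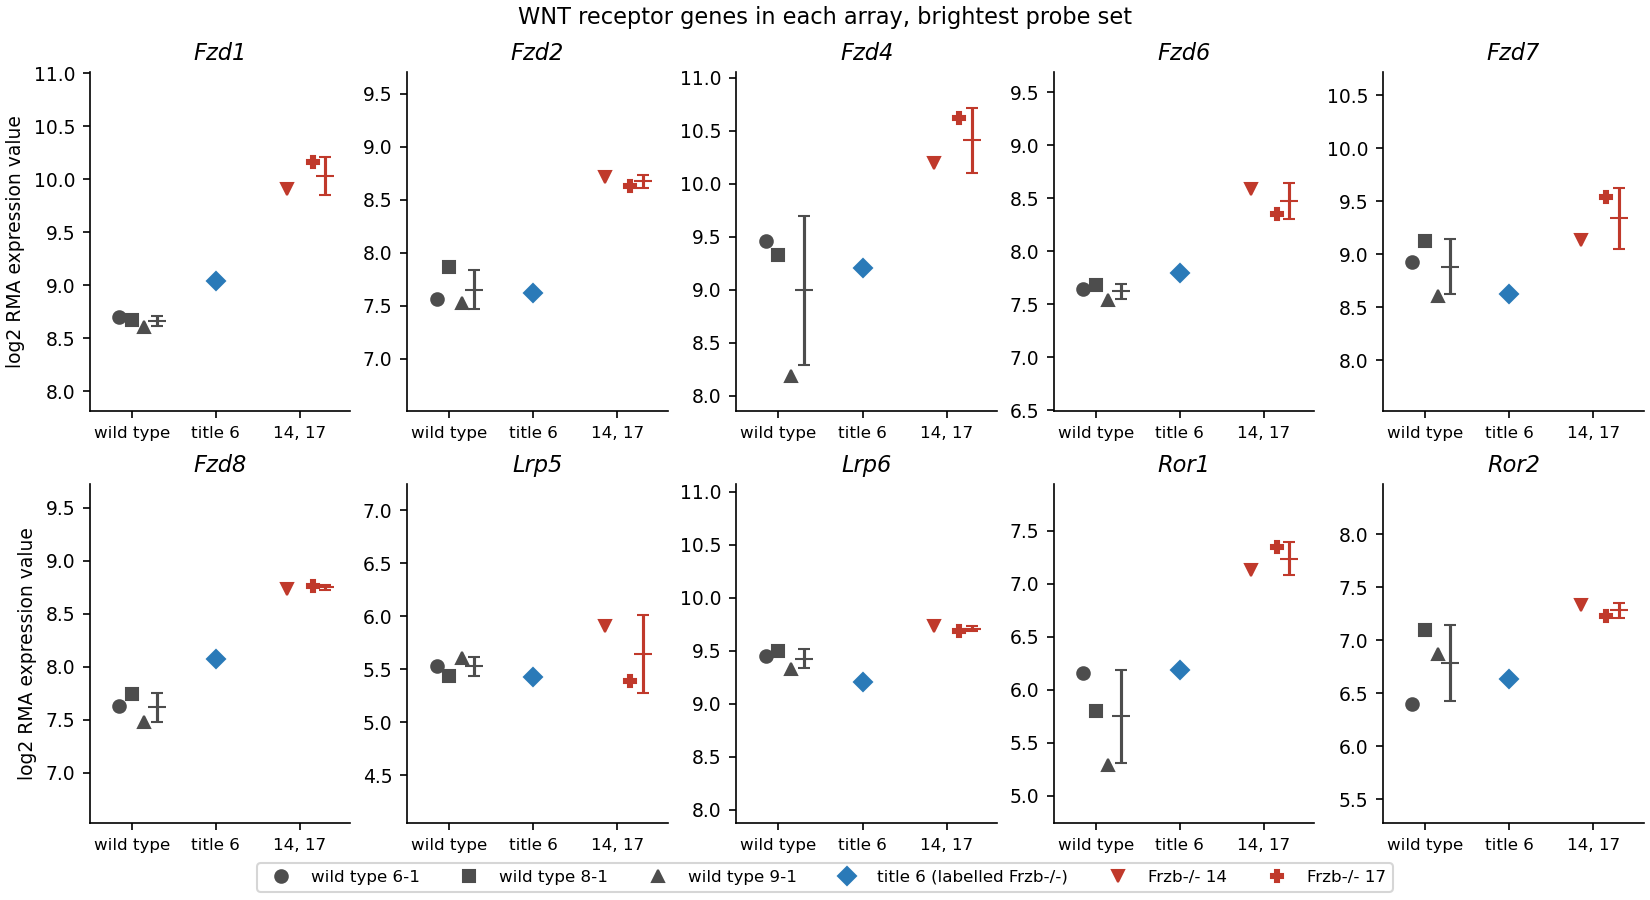
Log2 RMA expression value (vertical axis, each panel spanning the same range) of the brightest probe set of the 10 receptor genes in each mouse, with grey symbols for wild type, blue for animal 6 and red for animals 14 and 17, and mean ± SD as bars. Both red symbols lie above all grey ones in 9 genes and not in Lrp5, an order that centring on fibroblast markers turns for the means of Fzd2, Fzd6, Fzd7, Lrp5, Lrp6 and Ror2. Those markers rose too, so that centring does not test direction.

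Fzd1, a Frizzled that can signal through β-catenin, had the smallest adjusted p of the 20 probe sets. Its brightest probe set, 1437284_at, measured 8.71, 8.68 and 8.61 in wild-type animals 6-1, 8-1 and 9-1, 9.91 and 10.16 in animals 14 and 17, and 9.04 in animal 6. The lower knock-out lay 1.2002 above the highest wild-type mouse, and animal 6 lay between the groups. The means were 8.66 ± 0.05 (SD, n = 3) and 10.03 ± 0.18 (SD, n = 2), a log2 fold change of 1.37 (SE 0.13, limma adjusted p = 0.0012), or 2.58-fold. The second probe set, 1422985_at, was dim, with 5.24 to 5.52 in wild type and 5.79 and 6.47 in animals 14 and 17. Its difference of 0.76 had the same direction but an adjusted p of 0.038, above the threshold. Fzd1 was the member that still passed without any 1 of animals 6-1, 8-1, 9-1 and 14, and without animal 17 its log2 fold change was 1.24 with an adjusted p of 0.0102.

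Fzd8, another Frizzled of the β-catenin branch, was called at both of its probe sets. At 1423348_at it measured 7.63, 7.74 and 7.47 in animals 6-1, 8-1 and 9-1, 8.73 and 8.76 in animals 14 and 17, and 8.07 in animal 6. The groups were 0.99 apart at their nearest values, and animal 6 again lay between them. The log2 fold change was 1.13 (SE 0.13, limma adjusted p = 0.00183). At 1445815_at the values were 6.21, 6.44 and 6.52 in wild type, 7.46 and 7.33 in animals 14 and 17, and 6.64 in animal 6. There the log2 fold change was 1.0006, just inside the limit of 1, and cyclic loess normalization took that probe set out of the calls. Without animal 14 or animal 17 the adjusted p of the brighter probe set was 0.01002 and 0.0155, so the call was lost.

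Fzd2, a receptor linked to WNT5A as well as to β-catenin, was called at 1 of 3 probe sets. That probe set, 1418534_at, measured 7.57, 7.86 and 7.53 in wild-type animals 6-1, 8-1 and 9-1, 8.72 and 8.63 in animals 14 and 17, and 7.62 in animal 6. Animals 14 and 17 lay 0.77 or more above wild type, while animal 6 lay inside the wild-type range. The log2 fold change was 1.02 (SE 0.14, limma adjusted p = 0.00357), which centring on fibroblast markers turned to -0.0041. The second probe set, 1418533_s_at, differed by 0.86 with an adjusted p of 0.00743 and missed the fold limit only, and 1418532_at differed by 0.73 with an adjusted p of 0.0378. The call for Fzd2 lay near the limit: without animal 6-1, 9-1 or 14 the log2 fold change was 0.98, 0.96 or 0.98, and without animal 17 it was 1.07 with an adjusted p of 0.0226.

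Fzd6, a Frizzled best known from planar cell polarity, had a small difference with little spread. Its brighter probe set, 1417301_at, measured 7.65, 7.68 and 7.54 in animals 6-1, 8-1 and 9-1, 8.59 and 8.35 in animals 14 and 17, and 7.79 in animal 6. The groups were 0.67 apart at their nearest values. The log2 fold change was 0.85 (SE 0.13, limma adjusted p = 0.00472), below the fold limit, and centring on fibroblast markers turned it to -0.18. The other probe set, 1448662_at, gave 0.86 with an adjusted p of 0.0049. Without a fold limit, at an adjusted p below 0.01, 8 of the 20 receptor probe sets were higher, against 4.26% of all, and both probe sets of Fzd6 and a second one of Fzd2 were the additions.

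Fzd4, the receptor of norrin in blood vessels of the retina, had one of the largest mean differences and a wide spread. At its brightest probe set, 1419301_at, it measured 9.46, 9.33 and 8.19 in animals 6-1, 8-1 and 9-1, 10.19 and 10.62 in animals 14 and 17, and 9.21 in animal 6. Wild-type animal 9-1 was more than 1 below its group at this probe set, and it was the lowest of the wild-type mice at the other Fzd4 probe sets too. The log2 fold change was 1.41 (SE 0.38, limma adjusted p = 0.0335). The probe sets 1434756_at and 1449416_at differed by 0.97 and 1.25, with adjusted p-values of 0.0159 and 0.0399. Without animal 9-1 the log2 fold change at the brightest fell to 1.01 with an adjusted p of 0.013, so that Fzd4 passed the fold limit with and without this mouse and passed the p limit in neither case. Animal 9-1 was also the lowest wild-type mouse in 9 of 10 endothelial markers, all but Vwf, and in 40% of all probe sets, a comparison made after the Fzd4 values were seen. This was not particular to Fzd4 or to vessels. At the brightest probe set it was the lowest wild-type mouse in 8 of the 10 receptor genes. Its mean was also the lowest of the wild-type mice in the fibroblast, smooth muscle and adipocyte lists. Whether vessel content has a part in the Fzd4 values was not tested.

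Fzd7, a Frizzled of stem and progenitor cells, was not called. Its single probe set measured 8.93, 9.12 and 8.61 in wild-type animals 6-1, 8-1 and 9-1, 9.14 and 9.54 in animals 14 and 17, and 8.63 in animal 6. The nearest values of the groups were 0.015 apart. The log2 fold change was 0.46 (95% interval -0.009 to 0.92, limma adjusted p = 0.134), and it was -0.57 after centring on fibroblast markers.

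The co-receptors differed least. Lrp6 at its brighter probe set, 1428500_at, measured 9.45, 9.50 and 9.32 in animals 6-1, 8-1 and 9-1, 9.73 and 9.69 in animals 14 and 17, and 9.21 in animal 6. The groups did not overlap but were close, with a log2 fold change of 0.28 (95% interval 0.002 to 0.57, limma adjusted p = 0.125). The second probe set, 1451022_at, overlapped between the groups and gave 0.35 with an adjusted p of 0.322. Lrp5 measured 5.53, 5.44 and 5.61 in wild type, 5.90 and 5.39 in animals 14 and 17, and 5.43 in animal 6. Its only probe set was thus dim, below the array medians of 7.32 to 7.45. Animal 17 lay below all wild-type mice and animal 14 above them, and the log2 fold change was 0.12 (95% interval -0.29 to 0.53, limma adjusted p = 0.644). The intervals of both genes in the deposited values exclude a doubling. Their direction was not settled, as the interval of Lrp5 spans both signs and that of Lrp6 nearly does. Leaving out animal 14 gave -0.14 for Lrp5. Centring on fibroblast markers gave -0.74 for Lrp6 and -0.91 for Lrp5. Those markers rose themselves, and any gene that rose less than they did turns negative, so these values do not test direction.

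The Frizzled genes were set against the LRP genes within each mouse, which centring of whole arrays cannot alter. The mean of the 6 Frizzled genes minus the mean of the 2 LRP genes was 0.83, 0.93 and 0.52 in animals 6-1, 8-1 and 9-1, 1.40 and 1.81 in animals 14 and 17, and 1.08 in animal 6. Both animals 14 and 17 lay above all wild-type mice. The LRP mean rests in part on Lrp5, which was dim.

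Ror1, a ROR receptor that serves noncanonical WNT signalling, gave different results by probe set. The brightest, 1429313_at, measured 6.16, 5.80 and 5.29 in animals 6-1, 8-1 and 9-1, 7.13 and 7.35 in animals 14 and 17, and 6.19 in animal 6. The groups were 0.97 apart, while wild-type mice themselves spanned nearly as much. The log2 fold change of 1.49 (SE 0.25, limma adjusted p = 0.00648) was the largest of the 20. The probe sets 1429312_s_at and 1451014_at differed by 0.35 and 0.38, with adjusted p-values of 0.176 and 0.0632, so the size of the Ror1 difference depends on the probes read. The call was lost without animal 8-1, 14 or 17, with adjusted p-values of 0.0269, 0.0273 and 0.0499. Ror2, the other ROR receptor and a cartilage gene in skeletal growth, measured 6.40, 7.10 and 6.87 in wild type, 7.33 and 7.23 in animals 14 and 17, and 6.64 in animal 6. Its log2 fold change was 0.49 (95% interval -0.0005 to 0.99, limma adjusted p = 0.128), or -0.53 after centring on fibroblast markers.

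**Figure D2:**
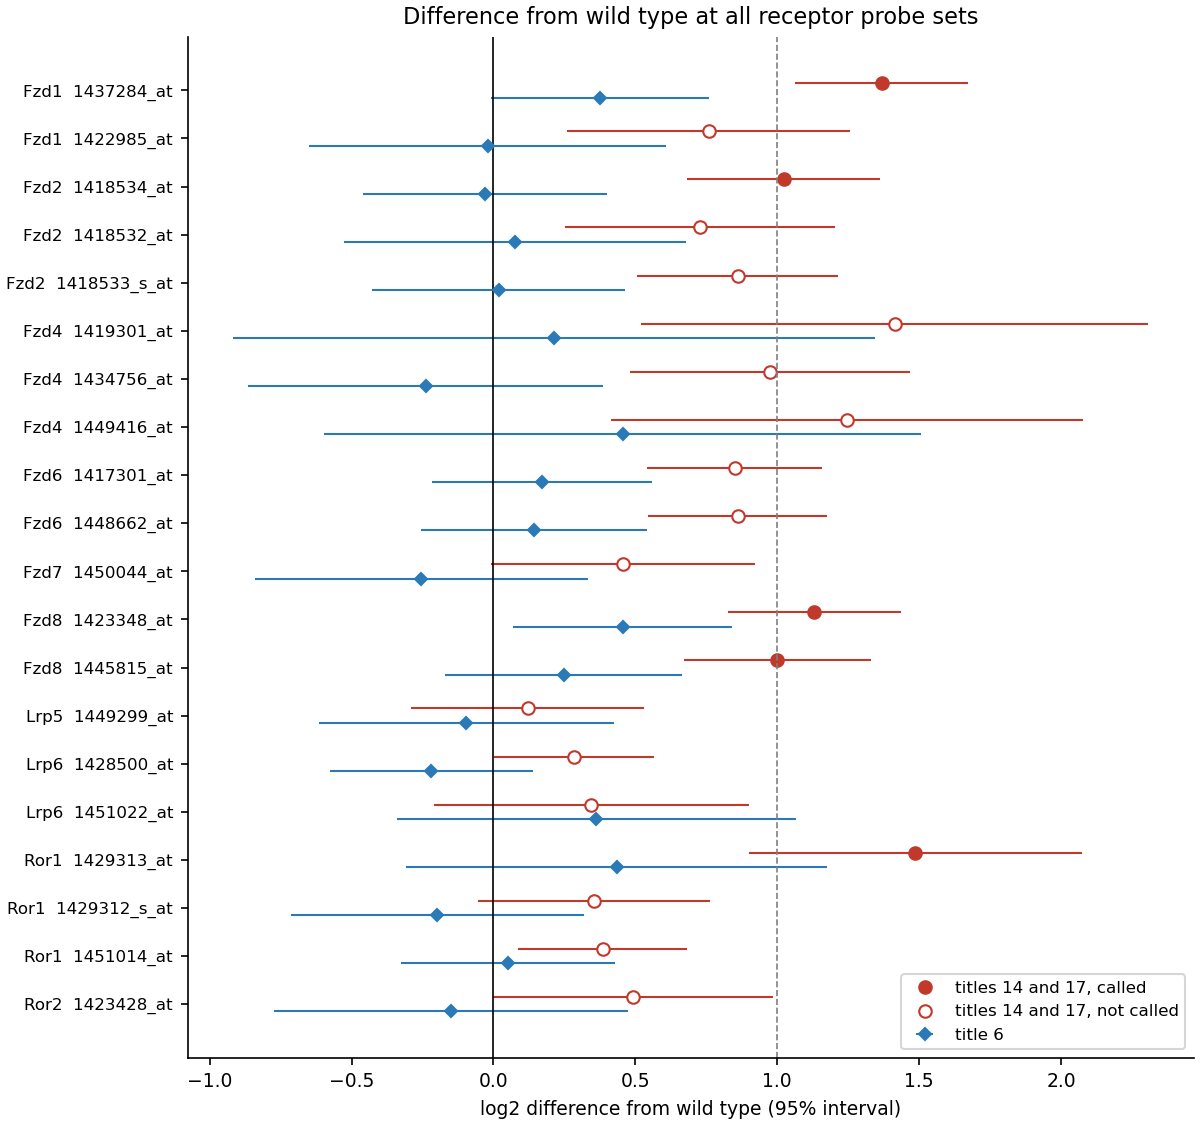
Log2 difference from wild type (horizontal axis) with its 95% interval for each of the 20 receptor probe sets, in red for animals 14 and 17 (filled where called) and in blue for animal 6, with a dashed line at the fold limit of 1. All red points lie above 0 in the deposited values, against 5 of 20 after centring on fibroblast markers, and the blue points lie between -0.25 and 0.46. As the fibroblast markers rose themselves, the centred signs do not test direction.

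Promoter sequences are shown for the 2 called genes found in the RefSeq table used here, Fzd1 and Ror1, and for Fzd7, whose promoter held letters of the site that TCF and LEF factors bind in the β-catenin branch. Of the 10 genes 5 matched (Fzd1, Fzd4, Fzd7, Ror1 and Ror2). Each sequence is the 250 bases before the annotated start on assembly GRCm38.p6, written 5′ to 3′ on the strand of the gene, and capitals mark motif matches on either strand. Fzd1 lies at chr5:4758217-4758466 on the minus strand, Ror1 at chr4:100095541-100095790 on the plus strand and Fzd7 at chr1:59481897-59482146 on the plus strand.
Fzd1: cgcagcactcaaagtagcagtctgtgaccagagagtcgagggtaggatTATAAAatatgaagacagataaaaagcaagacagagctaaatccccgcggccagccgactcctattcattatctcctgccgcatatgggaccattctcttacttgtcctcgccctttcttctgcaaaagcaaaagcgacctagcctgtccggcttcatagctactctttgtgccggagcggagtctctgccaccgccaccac
Ror1: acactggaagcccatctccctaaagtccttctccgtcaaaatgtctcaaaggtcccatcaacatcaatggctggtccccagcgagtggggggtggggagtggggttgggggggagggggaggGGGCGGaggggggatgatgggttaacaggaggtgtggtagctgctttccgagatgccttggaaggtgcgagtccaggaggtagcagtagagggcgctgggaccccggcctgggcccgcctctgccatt
Fzd7: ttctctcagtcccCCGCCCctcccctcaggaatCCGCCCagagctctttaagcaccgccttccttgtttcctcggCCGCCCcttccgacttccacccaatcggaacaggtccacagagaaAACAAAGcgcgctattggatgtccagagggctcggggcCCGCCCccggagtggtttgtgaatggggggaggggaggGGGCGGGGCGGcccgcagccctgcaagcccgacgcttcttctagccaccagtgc
The motifs searched on both strands were 3 forms of the TCF and LEF site, of which the first was CTTTGAA, the next form was CTTTGAT and the last one was CTTTGTT, together with the core of the GC box, GGGCGG, and the TATA box, spelled TATAAA. Neighbouring matches of GGGCGG may share letters. Among 32851 promoters of this length, 12% held at least 1 of the 3 TCF and LEF forms, and of the 5 receptor promoters Fzd7 did, with CTTTGTT read on the minus strand from -130. The Fzd1 promoter held TATAAA at -202, as 12.4% of promoters did anywhere in the window, and Ror1 held GGGCGG at -128, as 32.7% did. Fzd1 had 12 and Ror1 8 CpG dinucleotides, against a median of 6 over all promoters. These are matches of letters in 1 window, and nothing in the array data bears on binding there.

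Animal 6 showed little of the receptor pattern. In a fit on all 6 arrays with animal 6 as its own group, in which its spread is taken from the other groups, it was above all wild-type mice in 8 of 20 receptor probe sets (40%, against 34.4% of all probe sets) and below all in 3. Its differences from wild type ran from -0.25 to 0.46 with a median of 0.06, and by limma none was called (0% of all probe sets), the smallest adjusted p was 0.678, and 1 had an unadjusted p below 0.05, against 7.18% of all. That one was Fzd8 at 1423348_at, higher by 0.46. Animals 14 and 17 had higher means than animal 6 in 19 of the 20 probe sets, against 49.8% of all, with a median difference of 0.71. None of these was called (0.787% of all were called higher and 3.2% lower), with 15 at an unadjusted p below 0.05, against 35.1% of all in either direction, and a smallest adjusted p of 0.0132, that of Fzd1. After centring on cartilage and bone markers, an alternative chosen after seeing the data, 15 were called higher, against 11.5% of all. With all 3 mice labelled Frzb -/- in 1 group, no probe set of the table was called by limma, and 11.5% had an unadjusted p below 0.05. In that fit the receptor probe sets differed by 0.05 to 1.14, with 7 of 20 at an unadjusted p below 0.05 and adjusted p-values from 0.428 to 0.913.

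The other genes of the pathway were read from 6 lists outside the 10 members, in which 19 measured genes were called, 14 higher and 5 lower (by gene, 3.03% of all were called higher and 6.02% lower). That count was 12, 6, 15, 9 and 5 without animals 6-1, 8-1, 9-1, 14 and 17. Of 8 measured genes among the other WNT receptors and co-receptors limma called none, with 2 higher at an unadjusted p below 0.05 and a median log2 fold change of 0.22. Smo, the transducer of hedgehog signals kept here for its Frizzled-like fold, had the largest difference, 0.92 with an adjusted p of 0.00588, and 1 of its other probe sets was called (1.11, adjusted p = 0.00406). Ryk, a WNT receptor with an inactive kinase domain, differed by 0.24, Fzd9 by 0.39 and Lrp4, a co-receptor that anchors sclerostin, by -0.26. Of 12 measured WNT ligands and secretion genes limma called none, with 7 higher at an unadjusted p below 0.05 and a median of 0.37. Wls, which carries WNTs to the cell surface, differed by 0.86 (limma adjusted p = 0.00528), Wnt5b by 0.25, Wnt4 by 0.07 and Wnt7a by -0.10.

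The secreted inhibitors moved both ways, and 14 of the 19 calls were among them and the receptor partners. Of 12 measured inhibitors 5 rose and 3 fell, with a median of 0.58, where 3.03% of all genes were called higher and 6.02% lower. Dkk2, which binds LRP5 and LRP6, rose by 2.13 (limma adjusted p = 0.00157), from 6.21, 6.09 and 5.62 in wild type to 7.84 and 8.37, with 6.45 in animal 6. Sfrp2, a soluble Frizzled-like inhibitor, rose by 1.89, and Sost, the sclerostin of osteocytes, fell by 2.57 beside Frzb itself. The other calls, named after their values were seen, were Dkk3 (1.64), Sfrp4 (1.502) and Sfrp1 (1.19) upward and Dkk1 (-1.05) downward. Each is the value of the brightest probe set, and the study prints larger differences for Sfrp1 and Dkk3. Of 16 measured genes of receptor turnover and partners 4 rose and 2 fell, with a median of 0.63. Rspo2, an R-spondin that keeps Frizzleds at the surface, rose by 1.499, Adgra2, a partner in WNT7 signalling, by 1.44 and Cthrc1, a secreted partner in WNT and ROR2 complexes, by 1.17. Arrb2, a β-arrestin that takes part in receptor uptake, fell by 1.48. The last calls there, also named after their values were seen, were Gpc3 (1.06) and Arrb1 (-1.14).

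Inside the cell 5 genes were called at their brightest probe set, all higher. By that measure 3.03% of all genes were called higher and 6.02% lower. When any probe set of a gene counted, 1 gene of the dishevelled and β-catenin list was called lower. With any probe set counted, the 6 lists together held 15 genes called higher and 6 lower. Of all genes 3.79% were called higher by that rule, and the share called lower by it was not computed. Of 19 measured genes of the dishevelled and β-catenin pathway 2 rose, with a median of 0.11, and both, Nkd1 (1.63) and Nkd2 (1.21), encode proteins that bind dishevelled and restrain the pathway. Ctnnb1, which encodes β-catenin, lay between 13.08 and 13.25 in all 6 mice and differed by 0.02 (95% interval -0.25 to 0.30). Of 22 measured genes of the polarity and calcium pathway 3 rose, Nfatc4 (1.204), Nfatc2 (1.14) and Prickle2 (1.07), with a median of 0.01. After centring on fibroblast markers the medians of all 6 lists were below 0, from -1.01 to -0.40, against -0.09 for the 10 receptor genes.

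**Figure D3:**
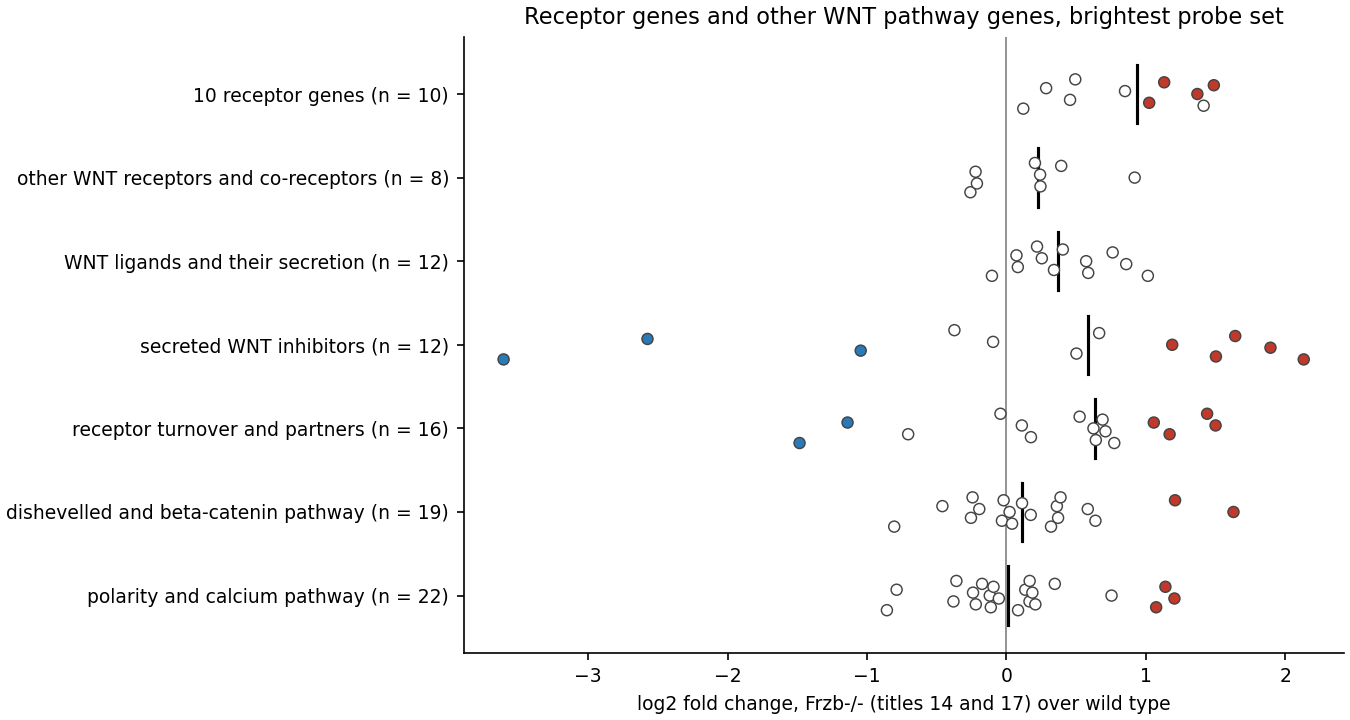
Log2 fold change of animals 14 and 17 over wild type (horizontal axis) at the brightest probe set of each measured gene, for the 10 receptor genes and 6 other WNT lists, with black bars for medians and fill for genes called higher (red) or lower (blue). The receptor genes lie above 0 as deposited with a median of 0.94, which centring on fibroblast markers turns to -0.09. The centred value places the receptor genes against markers that rose themselves, and it does not test direction.

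The same 2 mice differed from wild type in markers of several cell types, in deposited values that centring on fibroblast markers turned to medians of -0.06 for smooth muscle, -0.27 for adipocyte and -0.49 for endothelial markers. Of all genes 3.03% were called higher. Fibroblast markers were called higher in 6 of 10 genes with a median of 1.01, against 0.94 for the 10 receptor genes, while Pi16, named after its values were seen, differed by -0.89 (limma adjusted p = 0.00887). Their summed level (log2 of the sum of linear values) was 15.06 to 15.29 in wild type, 15.44 in animal 6 and 16.05 to 16.08 in animals 14 and 17. Smooth muscle and pericyte markers were called higher in 3 of 10 with a median of 0.97, and their summed level was 13.72 to 14.14 in wild type, 13.69 in animal 6 and 14.78 to 14.81 in animals 14 and 17. Adipocyte markers were called higher in 1 of 4 with a median of 0.76 (summed level 13.38 to 13.90, 13.10 and 14.41 to 14.45 in the same order). Endothelial markers were called in none of 10 by limma, with 8 higher and 1 lower at an unadjusted p below 0.05, a median of 0.53 and summed levels of 12.23 to 12.51, 12.33 and 12.66 to 12.81.

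Blood cell markers were lower in animals 14 and 17. Of all genes 6.02% were called lower. Red cell markers fell in 7 of 7 measured genes, with a median of -2.86 and summed levels of 14.53 to 14.89 in wild type, 14.84 in animal 6 and 12.36 to 12.52 in animals 14 and 17. Neutrophil markers fell in 9 of 9 with a median of -2.28 (summed level 16.46 to 16.87, 16.66 and 14.58 to 15.07). B cell markers were called lower in 5 of 9, and 8 had a mean below wild type, with a median of -1.38 (12.22 to 12.69, 12.70 and 11.03 to 11.37). Cartilage matrix markers were called in none of 9 by limma, with 1 lower at an unadjusted p below 0.05, a median of -0.04 and summed levels of 16.27 to 16.65, 16.69 and 16.31 to 16.53. Bone markers were called lower in 1 of 7, which was Sost, and 3 had a mean above wild type and 4 below. Their median was -0.10 and their summed levels were 15.39 to 15.52, 15.65 and 15.52 to 15.66. No marker was listed at 0, and the part of cell composition in the receptor differences was not tested. Calls again depended on single arrays: without animal 17 the fibroblast, smooth muscle, adipocyte and bone lists had 0 calls each (9, 9, 4 and 1 genes higher and 1, 0, 0 and 2 lower at an unadjusted p below 0.05 by limma) and the neutrophil list had 3. Without animal 8-1 there were 2 fibroblast, 2 smooth muscle, 0 adipocyte, 6 neutrophil and 3 B cell calls, without animal 14 there were 2 fibroblast and 0 adipocyte calls, and without animal 9-1 there were 4 fibroblast and 0 adipocyte calls.

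**Figure D4:**
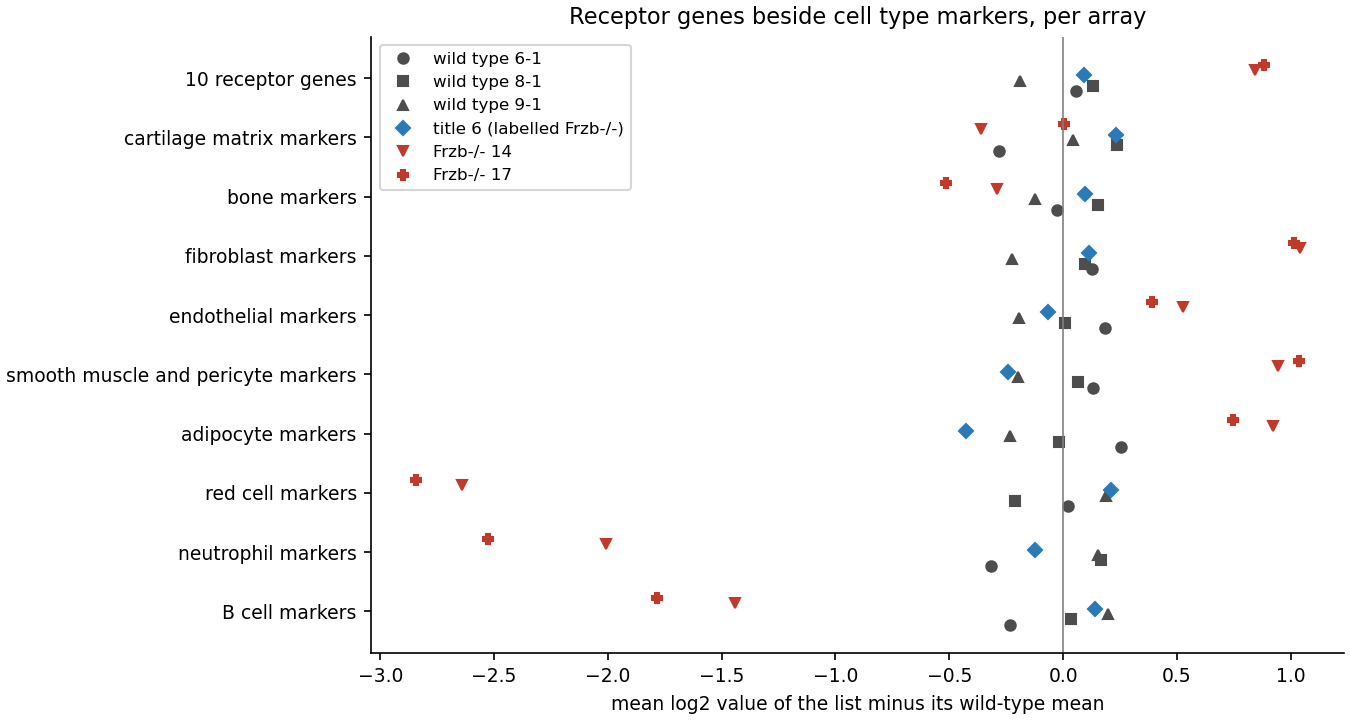
Mean log2 value of each list minus its wild-type mean (horizontal axis) for the 10 receptor genes and 9 lists of cell type markers, 1 symbol per mouse, grey for wild type, blue for animal 6 and red for animals 14 and 17. In the deposited values the receptor, fibroblast, smooth muscle, adipocyte and endothelial lists of animals 14 and 17 lie above all other mice and the bone and 3 blood cell lists below, and centring on fibroblast markers would place the fibroblast list at 0 in every mouse. The bone list holds Sost, which fell by 2.57. Of its 7 genes 3 were higher and 4 lower, and its summed level was not lower (15.52 to 15.66 against 15.39 to 15.52 in wild type).

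The receptor differences depended on what was taken as constant between arrays. The median log2 fold change of all probe sets was 0.02 as deposited. It was -1.01 after centring each array on the mean of the fibroblast markers, and 0.29 after centring on cartilage and bone markers. The bone markers include Sost, a WNT inhibitor that fell by 2.57 and so added to the upward shift of the second centring. Each centring takes 1 value from a whole array, so the distance between a receptor and the median of all probe sets stayed as it was. After fibroblast centring none of the 20 receptor probe sets was called by limma and their median was -0.17, and of the 10 genes none was higher and 4 were lower at an unadjusted p below 0.05, with Fzd1 at 0.34, Fzd4 at 0.39, Fzd8 at 0.10 and Ror1 at 0.46 still above 0. After cartilage and bone centring 13 of the 20 were called higher, as were 6.34% of all probe sets, and their median was 1.13, and Fzd4 (1.69) and Fzd6 (1.13) joined the called genes. In both centred fits the limma p-values of the 10 genes followed the size of the fold change alone. A gene's own spread did not enter them, so the Fzd4 call there takes no account of its wide spread. Under cyclic loess, which left the median of all probe sets at 0.0006, 4 of 10 genes were called as before, Fzd1, Fzd2, Fzd8 and Ror1.

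**Figure D5:**
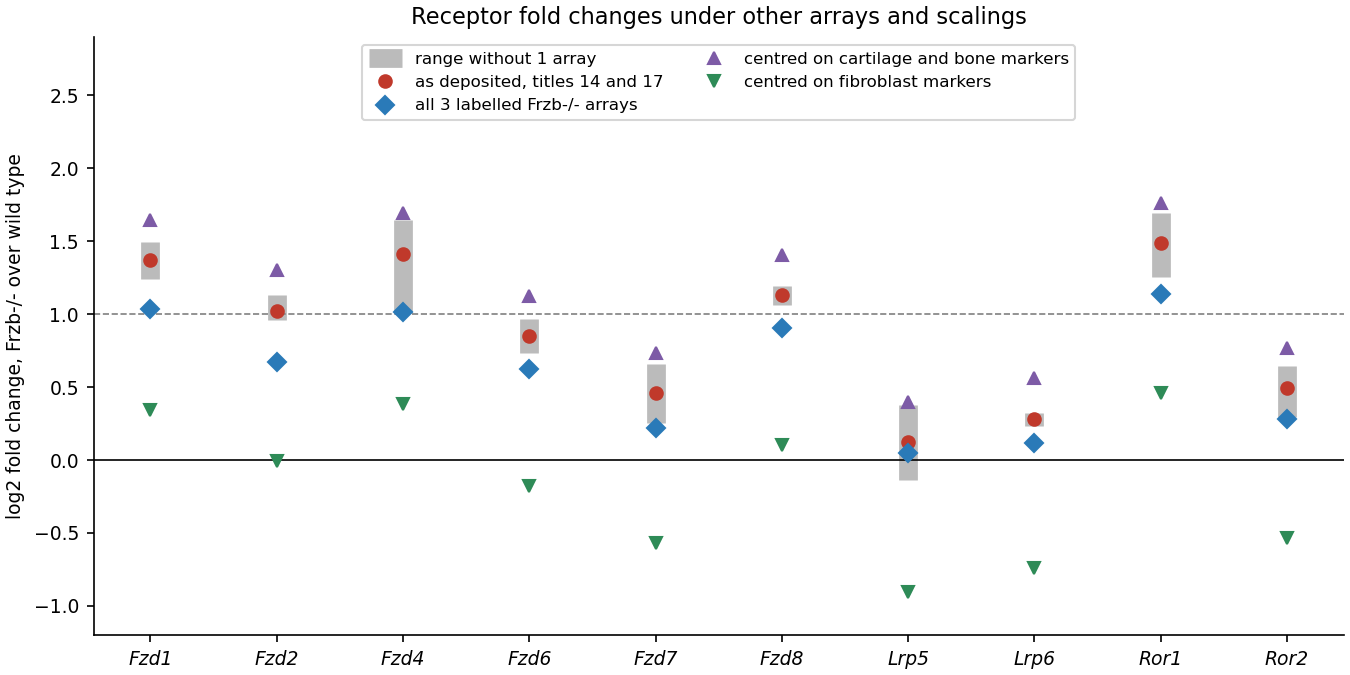
Log2 fold change of the 10 receptor genes at their brightest probe set (vertical axis) in the deposited values (red), with all 3 labelled Frzb-/- mice (blue), after centring on cartilage and bone markers (purple) or on fibroblast markers (green), and as the range over fits without 1 array (grey bars), with a dashed line at the fold limit of 1. Green points lie below 0 for Fzd2, Fzd6, Fzd7, Lrp5, Lrp6 and Ror2, and the grey bar of Lrp5 crosses 0. The fibroblast markers rose too, so the sign of a green point does not test direction.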

How the data were processed

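Total RNA of 1 joint per mouse was hybridised to Affymetrix mouse expression arrays. The authors dropped controls and probe sets with absent calls, and deposited log2 expression values made by RMA (affy 1.20.0 per the labels), which corrects background, equalises arrays by quantiles and summarises probes. The table had 30618 probe sets and 6 arrays, with array medians of 7.32 to 7.45. It carried no detection calls and no read depth, so the number of arrays limits precision. Quantile normalization holds the spread of each array the same, and a shift of most genes would be lost in it.

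Of the probe sets 25090 had 1 gene symbol, 677 several and 4851 none in the platform annotation. A gene was counted at its probe set with the highest mean over 6 arrays. Animals 14 and 17 are the pair whose mean differences match the fold differences the study prints. Their arrays were compared with wild type by limma 3.58.1 (lmFit and eBayes, two-sided) in R 4.3.3, with Benjamini-Hochberg adjustment over all probe sets. No batch was given in the labels. The fit was tested on simulated data, in which the shifts were estimated without bias. A first criterion, on the share of shifted probe sets called, was missed and was replaced by others after that was seen.

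The members, lists and tests were chosen with earlier results of these data known. Outside the members, up to 4 genes per WNT list (called ones first, by size, then the brightest) were named. Cell type lists served for levels and centring. Alternatives were all 3 labelled arrays, a 3-group fit, each array left out, other moderation, array weights, cyclic loess, 2 centrings, a filter, other thresholds and other probe set rules. Promoters came from RefSeq (GRCm38.p6).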

Additional observations from a re-analysis of the deposited data

How the results depend on the processing

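With 2 knock-out and 3 wild-type arrays the calls depended on several choices. With all 3 labelled Frzb-/- arrays the counts of receptor probe sets, receptor genes, other WNT genes and probe sets of the whole table called were all 0 by limma, with 7 receptor probe sets and 11.5% of all probe sets at an unadjusted p below 0.05. Leaving out each array in turn gave 0 to 4 receptor probe sets, 0 to 3 receptor genes, 5 to 15 other WNT genes and 432 to 1868 probe sets of the table, the lowest without animal 17 in each case, and 974 probe sets of the table without animal 8-1. Array weights gave 3 receptor probe sets, and a filter to probe sets above the median gave 3, with 1392 over the table. Centring on fibroblast markers gave 0 receptor probe sets, 0 receptor genes, 33 other WNT genes (1 higher, 32 lower) and 15633 probe sets (31 higher, 15602 lower), most of them moved by the shared shift of 1 value per array. Centring on cartilage and bone markers gave 13 receptor probe sets, with 3114 over the table (1940 higher, 1174 lower), and 15 for animals 14 and 17 against animal 6, where 11.5% of all probe sets were called higher, an alternative chosen after seeing the data. An adjusted p below 0.05 with no fold limit gave 13 receptor probe sets, 35 other WNT genes and 8124 probe sets (3592 higher, 4532 lower). The mean of all probe sets of a gene gave 2 receptor genes, with Fzd2 at 0.87 and Ror1 at 0.74. Directions turned for Lrp5 without animal 14 (-0.14, with 0.38 as the highest value without another array) and under fibroblast centring for Fzd2 (-0.0041), Fzd6 (-0.18), Fzd7 (-0.57), Lrp5 (-0.91), Lrp6 (-0.74) and Ror2 (-0.53). Because the fibroblast markers rose themselves, the turns under that centring do not test direction. Of the single-gene values under all alternatives 118 kept direction and side of the threshold, 20 lost the call, 2 gained it and 7 turned. No paired analysis was possible because the labels number animals, and the groups share no more than 1 number.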
